A study of Mus musculus with 12 samples.

Results

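Integrin and laminin chain genes were followed in mouse embryonic stem cells (mESCs) of 2 lines grown in 2 media. Members were all genes of the count table whose symbol is that of an integrin alpha chain (Itga), an integrin beta chain (Itgb) or a laminin chain (Lama, Lamb, Lamc). This rule used names and no measured value, and it found 37 of the 39017 genes in the table: 18 integrin alpha, 8 integrin beta, 5 laminin alpha, 3 laminin beta and 3 laminin gamma chains. Poly(A) RNA was sequenced from 12 libraries, 3 biological replicates in each of 4 groups. J1 is wild type and male. 3B3-3l is a single stable line made from Dnmt3a-/-,Dnmt3b-/- cells, in which transgenes under the constitutive CAG promoter express Dnmt3b and Dnmt3l, so that DNA methylation is kept up in either medium. Cells of each line grew with LIF in serum or in 2i, a medium that holds mESCs in a naive ground state with 1 µM of the MEK inhibitor PD0325901 and 3 µM of the GSK3 inhibitor CHIR99021. Per the labels, LIF was at 500 U/ml in serum and at 1000 U/ml in 2i, whereas the published methods name the same concentration for both media. In serum, J1 grew on feeder cells that were depleted before RNA was taken and 3B3-3l grew on gelatin, so line and culture surface cannot be told apart there. The methods name feeders for J1 in serum only, so medium and feeder culture cannot be told apart within J1. The same limit holds for each difference of the 2i effects between the lines. The comparison of the 4 groups addressed whether 3B3-3l cells in 2i express genes more like wild-type cells in 2i or more like 3B3-3l cells in serum.

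Laminins are the main glycoproteins of basement membranes. Each laminin is a secreted trimer of 1 alpha, 1 beta and 1 gamma chain, and the chains differ between tissues and stages. Integrins are cell surface receptors built of 1 alpha and 1 beta chain, and the pairing decides whether the receptor binds laminin, fibronectin, collagen or proteins of other cells. Lama1, Lamb1 and Lamc1 form the first laminin of the mouse embryo, and receptors of Itga6 or Itga3 with Itgb1 bind laminin.

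Upstream sequences are shown for 4 chains whose levels moved in opposite directions between the media in both lines: Lamb1 and Lamb2, which can take the same place in a laminin trimer, and Itgb5 and Itga5. They are the bases just before the first annotated base of each gene, 5′ to 3′ on the gene's strand, from the RefSeq promoter table of GRCm38.p6, with CpG dinucleotides (the sites of DNA methylation) in capitals. The regions are chr12:31265043-31265145 on the plus strand for Lamb1, chr9:108479612-108479846 on the plus strand for Lamb2, chr16:33829415-33829664 on the plus strand for Itgb5 and chr15:103366792-103367041 on the minus strand for Itga5.
Lamb1: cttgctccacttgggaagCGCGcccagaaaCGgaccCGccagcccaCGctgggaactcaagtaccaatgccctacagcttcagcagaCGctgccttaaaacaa
Lamb2: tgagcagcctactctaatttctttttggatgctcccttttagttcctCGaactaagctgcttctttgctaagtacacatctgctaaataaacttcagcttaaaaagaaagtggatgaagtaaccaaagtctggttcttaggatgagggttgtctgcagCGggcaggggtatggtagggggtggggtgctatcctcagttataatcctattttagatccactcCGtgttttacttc
Itgb5: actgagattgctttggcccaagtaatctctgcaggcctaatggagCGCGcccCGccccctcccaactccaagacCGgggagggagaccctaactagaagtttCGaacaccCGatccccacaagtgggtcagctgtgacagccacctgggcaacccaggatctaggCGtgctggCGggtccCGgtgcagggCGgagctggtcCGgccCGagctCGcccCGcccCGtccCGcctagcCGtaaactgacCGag
Itga5: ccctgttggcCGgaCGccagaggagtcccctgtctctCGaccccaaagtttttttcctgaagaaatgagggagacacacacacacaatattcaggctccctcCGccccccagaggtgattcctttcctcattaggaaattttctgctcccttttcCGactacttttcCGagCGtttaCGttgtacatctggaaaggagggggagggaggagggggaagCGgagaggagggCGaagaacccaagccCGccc

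CpG dinucleotides were frequent before Lamb1 and Itgb5 and sparse before Lamb2. The 250 bases before the table's start site held 14 CpGs for Lamb1, 3 for Lamb2, 18 for Itgb5 and 11 for Itga5. For Lamb1 and Lamb2 this window runs past the gene's first annotated base. The stretches shown above end before that base, with 6 CpGs in 103 bases for Lamb1 and 3 in 235 for Lamb2. The table gave 26 such windows for 23 of the 37 members, with a median of 10 CpGs, against a median of 6 over all 32851 windows. Methylation of these sites was not analysed here, and the counts describe the sequences alone.

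Expression was concentrated in a few chains of each family. Of the 37 members, 28 had a mean of at least 1 CPM (a gene's counts relative to the size of its library, with edgeR's TMM factors) in a group, and 17 had at least 10 CPM. A filter on low counts kept 32 members for testing, among 17885 genes. The members not tested were Itga2, Itgad, Itgax, Itgb6 and Lamc3, none of which passed 0.434 CPM in any library. To set chains of different length side by side, CPM was divided by the effective transcript length in kb. On that scale Lamc1, the common gamma chain of basement membranes, stood highest in 3 groups, at 102 ± 7.08 CPM per kb in J1 2i, 80.8 ± 1.28 in 3B3-3l serum and 116 ± 4.77 in 3B3-3l 2i (mean ± SD, n = 3 here and below). In J1 serum Itgb1, the beta chain shared by most integrins, was higher, at 78.4 ± 2.56 CPM per kb against 66.3 ± 4.56 for Lamc1. Itga6, the laminin-binding alpha chain, had the highest level of the integrin alpha chains in every group, from 47.2 ± 0.707 CPM per kb in J1 serum to 61.0 ± 2.16 in 3B3-3l serum. In J1 2i (56.9 ± 4.47) and in 3B3-3l 2i (58.7 ± 1.04) its level overlapped that in 3B3-3l serum.

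**Figure D1:**
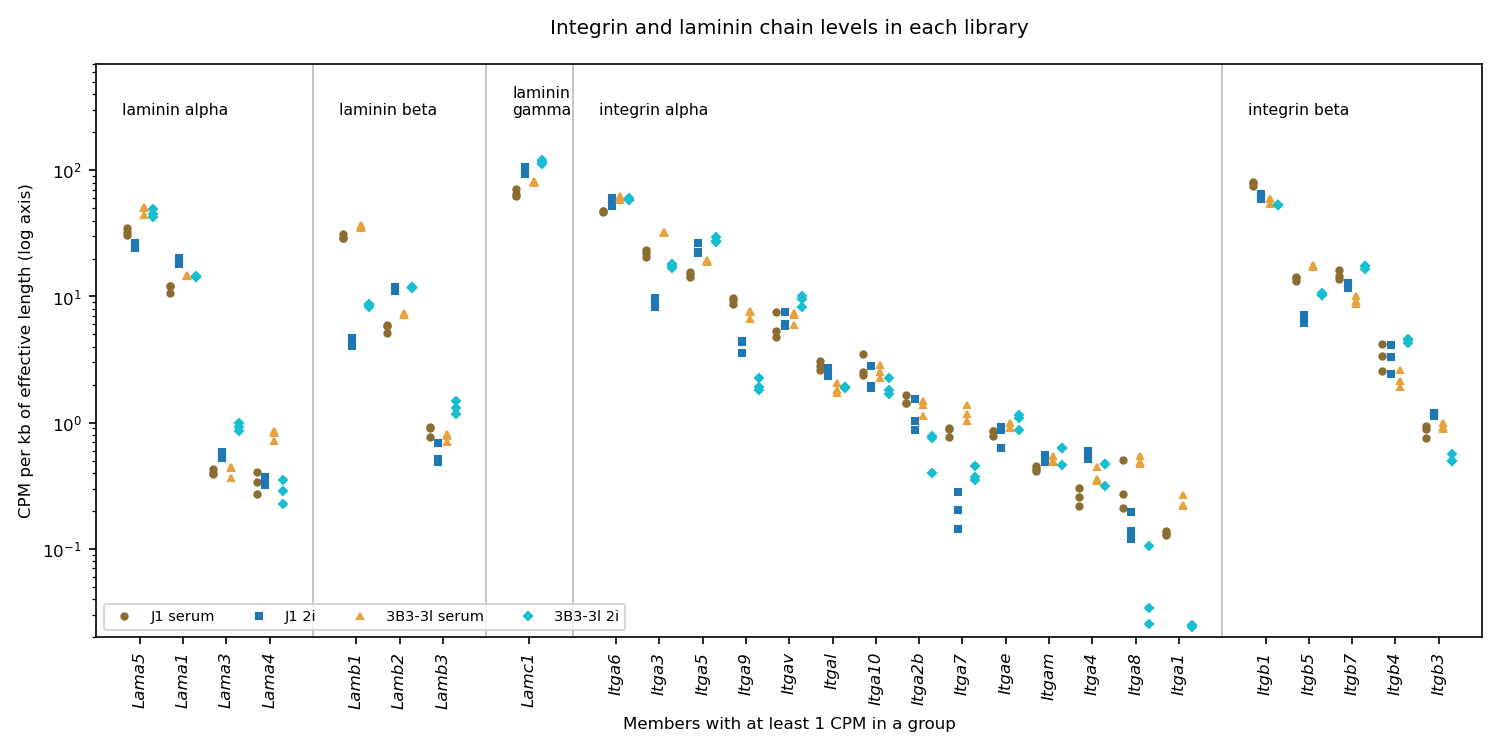
Level of members with at least 1 CPM in a group, as CPM per kb of effective transcript length on a log axis, with 1 point per library and a colour and marker for each of the 4 groups. Lamc1, Itgb1 and Itga6 stand at the top of their families, and Lamb1 points in 2i lie far under those in serum. Itga1 libraries in J1 2i and replicate 3 of 3B3-3l 2i, which are at 0 or under the axis, are not drawn.

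Between 2i and serum, the beta chains of laminin changed places, the gamma chain Lamc1 rose, and the integrin chains split into a rising and a falling set. Lamb1, Itga3, Itga9 and Itgb5 fell in both lines, while Lamb2, Lamc1 and Itga5 rose in both. In J1, 24 of the 32 tested members were called (edgeR's quasi-likelihood test, adjusted p under 0.05 by the Benjamini-Hochberg method), 11 higher and 13 lower in 2i. Of all tested genes 66.1% were called in this contrast, 33.2% higher and 32.9% lower. In 3B3-3l, 24 of 32 were called, 9 higher and 15 lower, against 65.4% of all genes (32.7% higher and 32.7% lower). The members' counts, 24 of 32 in either line, lie near this background, so they are no result about the families. The median log2 fold change of the 32 members that passed the filter was -0.24 in J1 and -0.19 in 3B3-3l, against 0.01 over all genes in either line. Of these, Itga1, Itga11, Itgb2 and Itgb8 passed it through serum libraries alone, with at most 0.161 CPM in any 2i library. The filter thus favoured lower 2i values for them, and they enter these medians and, where called, the counts of lower members. Neither median is therefore a result about the families. The 2 lines called 7 members higher in both (Itga5, Itgav, Itgb4, Lama3, Lamb2 and Lamc1 among them) and 10 lower in both (Itga1, Itga3, Itga7, Itga8, Itga9, Itgb1, Itgb5, Itgb8, Lama5, Lamb1). Only Itga10, Itgae, Itgam and Lama2 were called in neither line.

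**Figure D2:**
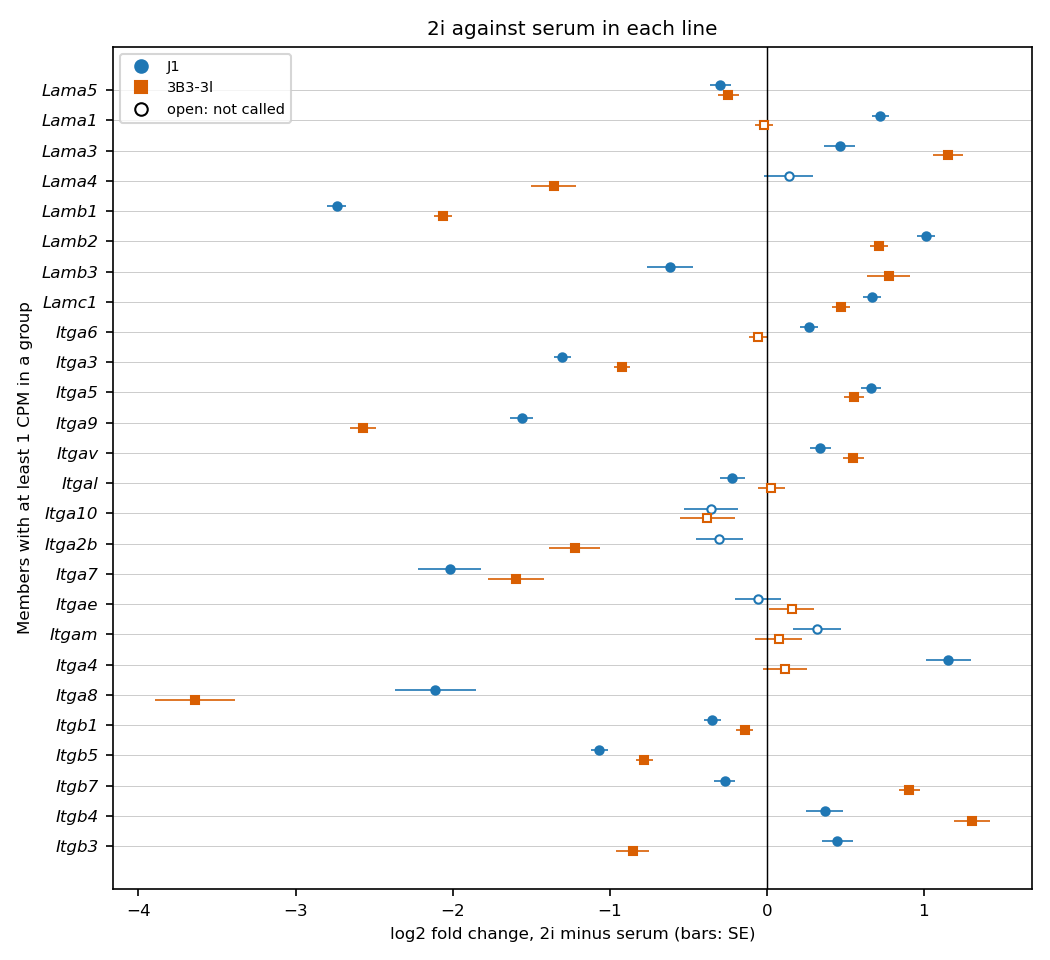
Log2 fold change of 2i against serum (horizontal axis, bars are standard errors) for members with at least 1 CPM in a group other than Itga1, with circles for J1, squares for 3B3-3l and open symbols where the change was not called. Lamb1 lies at -2.74 in J1 and -2.06 in 3B3-3l, and Itgb3, Itgb7 and Lamb3 have called changes of opposite sign in the 2 lines.

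The libraries carried the markers of mESCs, and markers of mESCs and of other cells moved with the medium. The 10 mESC markers summed to 4943 to 6857 CPM over all libraries, with none at 0 in a group. Of the 10 tested, 4 were called higher and 4 lower in 2i in J1, and 5 higher and 3 lower in 3B3-3l. The 20 fibroblast markers summed to 149 to 156 CPM in J1 serum and 178 to 208 CPM in 3B3-3l serum, against 48.2 to 49.6 CPM and 36.1 to 37.3 CPM in 2i, with Lum at 0 in J1 serum, Dcn, Lum and Twist2 at 0 in J1 2i, and Dcn, Lox, Lum and Twist2 at 0 in 3B3-3l 2i. Of the 15 tested, 14 were called lower and 1 higher in 2i in J1, and 14 lower in 3B3-3l. The 14 markers of extraembryonic endoderm summed to 16.7 to 19.0 CPM in J1 serum and 32.9 to 34.7 CPM in 3B3-3l serum, against 12.1 to 13.97 CPM and 14.5 to 15.4 CPM in 2i, with Ttr at 0 in every group and Afp at 0 in J1 2i. Of the 12 tested, 5 were called lower and 3 higher in 2i in J1, and 9 lower in 3B3-3l. The 9 markers of white blood cells and megakaryocytes in the table summed to 40.7 to 44.0 CPM and 55.4 to 59.4 CPM in serum and to 102 to 110.2 CPM and 204 to 226 CPM in 2i (J1 and 3B3-3l), with Ptprc at 0 in J1 2i, Gp9 at 0 in both serum groups and in 3B3-3l 2i, and Pf4 at 0 in both serum groups. Laptm5 alone held a mean of 28.6 CPM in J1 serum, 84.6 CPM in J1 2i, 45.6 CPM in 3B3-3l serum and 204 CPM in 3B3-3l 2i. Of the 4 tested, 3 were called higher and 1 lower in 2i in J1, and 1 each way in 3B3-3l. The part of such cells in the changes of the integrin and laminin genes was not tested, and in bulk RNA fewer cells of a type and less RNA per cell cannot be told apart.

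Among the laminin beta chains, Lamb1 carried the largest change of any member above 10 CPM in J1. It stood at 161, 152 and 174 CPM in the J1 serum libraries and at 25.2, 25.1 and 22.6 CPM in J1 2i. In 3B3-3l it was at 191, 201 and 195 CPM in serum and 47.6, 47.0 and 45.8 CPM in 2i. All 6 serum libraries lay above all 6 of 2i, and within 2i the 3 of 3B3-3l lay above the 3 of J1. The log2 fold change of 2i against serum was -2.74 ± 0.06 (SE, adjusted p = 6.31e-15) in J1 and -2.06 ± 0.06 (SE, adjusted p = 5.52e-14) in 3B3-3l. The fall was smaller in 3B3-3l, with a difference between the 2i effects of 0.68 ± 0.08 (SE, adjusted p = 1.40e-05).

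Lamb2, the beta chain of neuromuscular and kidney basement membranes, went the other way. It was at 32.0, 28.3 and 32.4 CPM in J1 serum and at 65.3, 61.1 and 60.8 CPM in J1 2i. It was at 40.7, 39.2 and 38.5 CPM in 3B3-3l serum and 64.7, 63.9 and 65.4 CPM in 3B3-3l 2i. The 2i libraries of both lines lay above all serum libraries and overlapped each other. Its log2 fold change was 1.01 ± 0.06 (SE, adjusted p = 2.32e-10) in J1 and 0.71 ± 0.06 (SE, adjusted p = 1.27e-08) in 3B3-3l, a difference of -0.30 ± 0.08 (SE, adjusted p = 0.00825).

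Lamb3, a chain of epithelial anchoring laminin, was low and moved in opposite directions in the 2 lines. It stood at 3.03, 3.62 and 3.55 CPM in J1 serum and at 2.71, 1.91 and 2.02 CPM in J1 2i, against 2.77, 3.20 and 3.09 CPM in 3B3-3l serum and 5.10, 5.82 and 4.62 CPM in 3B3-3l 2i. The change was -0.62 ± 0.15 (SE, adjusted p = 0.00152) in J1 and 0.78 ± 0.14 (SE, adjusted p = 0.000107) in 3B3-3l on the log2 scale, and the difference of the 2 was 1.39 ± 0.20 (SE, adjusted p = 7.48e-05).

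Per length, the make-up of the beta family turned over with the medium. Lamb1 held 82.0% ± 0.588 of the summed CPM per kb of the beta chains in J1 serum and 81.7% ± 0.628 in 3B3-3l serum. In 2i its share was 27.0% ± 1.30 in J1 and 39.3% ± 0.627 in 3B3-3l. Lamb2 held 15.6% ± 0.819 and 16.6% ± 0.727 in the serum groups, and 69.6% ± 1.13 and 54.6% ± 1.05 in the 2i groups of J1 and 3B3-3l. Lamb2 was thus the leading beta transcript in 2i and Lamb1 in serum, in every library. The ratio of Lamb1 to Lamb2 per length was 5.27 ± 0.315 in J1 serum and 4.94 ± 0.2497 in 3B3-3l serum, which overlapped. It was 0.389 ± 0.0246 in J1 2i and 0.720 ± 0.0237 in 3B3-3l 2i, with no overlap between the lines. The summed level of the 3 beta chains was 36.3 ± 1.54 CPM per kb in J1 serum and 16.5 ± 0.757 in J1 2i, and 43.7 ± 1.10 and 21.7 ± 0.2003 in 3B3-3l.

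The gamma chain Lamc1 rose in 2i in both lines. It was at 482, 444 and 508 CPM in J1 serum and at 788, 791 and 701 CPM in J1 2i. The level was 591, 596 and 605 CPM in 3B3-3l serum and 834, 827 and 824 CPM in 3B3-3l 2i. All 2i libraries lay above all serum libraries, with log2 fold changes of 0.67 ± 0.06 (SE, adjusted p = 3.50e-08) in J1 and 0.47 ± 0.06 (SE, adjusted p = 1.91e-06) in 3B3-3l. The difference between these effects, -0.20 ± 0.08 (SE, adjusted p = 0.0675), did not pass the threshold, but it did without J1 2i replicate 3 (-0.25, adjusted p = 0.0108) or J1 serum replicate 3 (-0.27, adjusted p = 0.0217). It also passed by the DESeq2 Wald test (adjusted p = 0.0488) and among genes with at least 10 counts in every library (adjusted p = 0.0325). With Lamb1 falling and Lamc1 rising, the ratio of Lamc1 to Lamb1 per length was 2.23 ± 0.0693 in J1 serum and 23.0 ± 0.122 in J1 2i. It was 2.26 ± 0.0786 in 3B3-3l serum and 13.6 ± 0.225 in 3B3-3l 2i.

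Among the laminin alpha chains, Lama1 responded to the medium in J1 and had no called change in 3B3-3l. Lama1 is the alpha chain of the early embryo. It was at 113, 99.7 and 113 CPM in J1 serum and at 179, 190.0 and 169.7 CPM in J1 2i, against 135, 138 and 137 CPM in 3B3-3l serum and 135, 134 and 137 CPM in 3B3-3l 2i. The 2 media did not overlap in J1, and in 3B3-3l they did. The log2 fold change was 0.72 ± 0.06 (SE, adjusted p = 9.73e-09) in J1 and -0.02 ± 0.05 (SE, adjusted p = 0.805) in 3B3-3l, and the difference between them was -0.74 ± 0.08 (SE, adjusted p = 3.86e-06).

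Lama5, the alpha chain of most adult basement membranes and of the laminin used to culture stem cells, was higher in 3B3-3l than in J1 in either medium. It stood at 276, 235 and 281 CPM in J1 serum, at 228, 224 and 194 CPM in J1 2i, 437, 429 and 436 CPM in 3B3-3l serum and 364, 360.5 and 373 CPM in 3B3-3l 2i. Each group of 3B3-3l lay above both groups of J1. The line difference on the log2 scale was 0.72 ± 0.07 (SE, adjusted p = 9.25e-07) in serum and 0.77 ± 0.07 (SE, adjusted p = 2.60e-07) in 2i. The medium effect was small, -0.29 ± 0.07 (SE, adjusted p = 0.00123) in J1 and -0.25 ± 0.07 (SE, adjusted p = 0.00451) in 3B3-3l. The latter was not called when transcript length was taken into the model (-0.09, adjusted p = 0.304).

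Lama1 held 25.7% ± 1.79 of the summed alpha chain level per length in J1 serum and 42.0% ± 2.47 in J1 2i, but 22.7% ± 1.51 and 23.5% ± 1.5 in the serum and 2i groups of 3B3-3l. Lama5 held nearly all of the rest, 55.9% ± 2.38 in J1 2i and between 72.6% ± 1.92 and 75.4% ± 1.75 in the other groups. The Lama5 share rests in part on a short transcript model. In the deposited estimates the 451-base Lama5-003 held 19.8% to 25.8% of Lama5 TPM over the group means, on 0.647% to 0.945% of its reads. All Lama1 reads fell on the 9518-base Lama1-201. The 3 remaining alpha chains were low. Lama3, the alpha chain of epithelial anchoring laminin, rose in both lines, from 4.13 ± 0.208 to 5.69 ± 0.3404 CPM in J1, and in 3B3-3l from 4.23 ± 0.453 to 9.42 ± 0.724 CPM. Its log2 fold change was 0.46 ± 0.10 (SE, adjusted p = 0.000726) and 1.15 ± 0.10 (SE, adjusted p = 2.86e-08), a difference of 0.69 ± 0.14 (SE, adjusted p = 0.00135). Lama4, the alpha chain of blood vessels, fell in 3B3-3l alone, from 4.07, 4.32 and 4.71 CPM in serum to 1.35, 2.06 and 1.70 CPM in 2i, a log2 change of -1.36 ± 0.14 (SE, adjusted p = 4.63e-07). In J1 it was at 1.62, 1.54 and 1.73 CPM in serum and 1.91, 1.65 and 1.83 CPM in 2i, and the serum libraries of 3B3-3l stood above all others. The difference between the 2i effects on Lama4 was -1.50 ± 0.21 (SE, adjusted p = 6.99e-05). Lama2, the alpha chain of muscle, stayed at or under 0.367 CPM in every library and was called in no contrast.

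**Figure D3:**
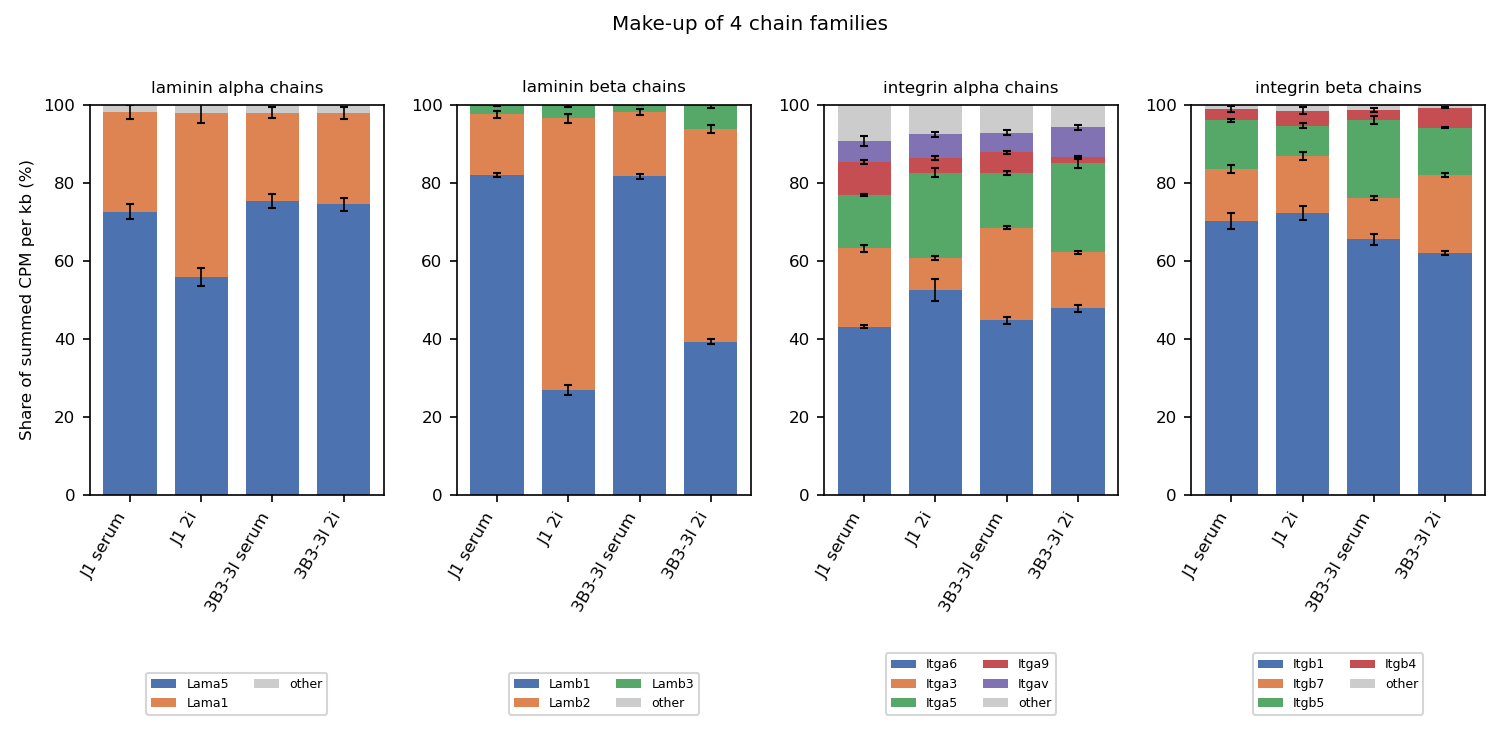
Share of each chain in the summed CPM per kb of its family, for 4 families (vertical axes, percent, from 0), as stacked means of the 3 libraries of each group. Each error bar is the SD of the segment beneath it, chains under 5% in every group are joined as other, and the turn from Lamb1 to Lamb2 between serum and 2i is the widest change.

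Of the laminin-binding integrin chains, Itga3 and Itga7 fell in both lines and Itga6 had a small rise in J1. Itga3, which binds laminins of the Lama5 and Lama3 type, was at 98.0, 89.0 and 98.0 CPM in J1 serum and at 39.7, 36.9 and 38.9 CPM in J1 2i. It was at 148, 144 and 140.1 CPM in 3B3-3l serum and 73.3, 76.7 and 77.9 CPM in 3B3-3l 2i. No groups overlapped, and in each medium 3B3-3l lay above J1. The log2 fold change of 2i against serum was -1.30 ± 0.05 (SE, adjusted p = 5.16e-12) in J1 and -0.92 ± 0.05 (SE, adjusted p = 1.88e-10) in 3B3-3l, a difference of 0.38 ± 0.07 (SE, adjusted p = 0.000973). Itga6 was at 152, 149 and 159 CPM in J1 serum, at 193, 195 and 166 CPM in J1 2i, 192, 200.2 and 203 CPM in 3B3-3l serum and 196, 189 and 188 CPM in 3B3-3l 2i. The J1 serum libraries were the lowest and the other 3 groups lay close together. Itga6 rose in J1 by 0.27 ± 0.06 (SE, adjusted p = 0.000612) on the log2 scale, with -0.05 ± 0.06 (SE, adjusted p = 0.426) in 3B3-3l and a difference of -0.32 ± 0.08 (SE, adjusted p = 0.00571). Its reads fell mainly on 2 transcript models, Itga6-002 and Itga6-005, which held 48.7% to 49.7% and 40.8% to 42.3% of its TPM over the 4 group means. Itga7, the muscle laminin receptor chain, fell from 3.29 ± 0.282 to 0.808 ± 0.272 CPM in J1, and in 3B3-3l from 4.57 ± 0.694 to 1.51 ± 0.190 CPM, log2 changes of -2.02 ± 0.20 (SE, adjusted p = 2.22e-07) and -1.59 ± 0.18 (SE, adjusted p = 8.83e-07). As a share of all integrin alpha chains per length, Itga3 held 20.1% ± 0.846 in J1 serum and 8.19% ± 0.515 in J1 2i, and 23.7% ± 0.439 and 14.3% ± 0.354 in 3B3-3l.

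The chains of fibronectin and vitronectin receptors were divided. Itga5, the fibronectin receptor chain, was at 65.6, 60.2 and 63.1 CPM in J1 serum and at 111, 95.3 and 92.9 CPM in J1 2i. It was at 80.2, 82.5 and 78.3 CPM in 3B3-3l serum and 114, 124 and 116 CPM in 3B3-3l 2i. The 2i libraries lay above all serum libraries, with log2 fold changes of 0.66 ± 0.06 (SE, adjusted p = 1.87e-07) in J1 and 0.55 ± 0.06 (SE, adjusted p = 1.28e-06) in 3B3-3l. Itga5 and Itga3 changed rank among the alpha chains. The ratio of Itga3 to Itga5 per length was 1.47 ± 0.0283 in J1 serum and 1.69 ± 0.0497 in 3B3-3l serum, and 0.374 ± 0.0154 and 0.627 ± 0.0437 in 2i. Itgav, the alpha chain of vitronectin receptors, rose from 27.4 ± 1.19 to 34.8 ± 2.18 CPM in J1, and in 3B3-3l from 34.0 ± 2.45 to 49.8 ± 3.07 CPM. Its log2 fold change was 0.34 ± 0.07 (SE, adjusted p = 0.000398) and 0.55 ± 0.07 (SE, adjusted p = 2.50e-06), but the J1 value was not called with transcript length in the model (0.14, adjusted p = 0.424).

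Itgb5, a beta partner of Itgav, fell while Itgav rose. It was at 40.4, 38.7 and 40.9 CPM in J1 serum and at 19.4, 18.0 and 19.9 CPM in J1 2i. It was at 51.7, 50.2 and 50.1 CPM in 3B3-3l serum and 29.1, 30.6 and 28.9 CPM in 3B3-3l 2i. The 4 groups did not overlap. The log2 fold change was -1.07 ± 0.05 (SE, adjusted p = 6.33e-11) in J1 and -0.78 ± 0.05 (SE, adjusted p = 1.73e-09) in 3B3-3l, a difference of 0.29 ± 0.07 (SE, adjusted p = 0.00733). Itgb3, another partner of Itgav and of the platelet chain Itga2b, had called changes of opposite sign. It stood at 5.28, 4.22 and 4.99 CPM in J1 serum and at 6.74, 6.36 and 6.66 CPM in J1 2i, against 5.04, 5.57 and 5.18 CPM in 3B3-3l serum and 3.17, 2.78 and 2.78 CPM in 3B3-3l 2i. J1 2i was highest, 3B3-3l 2i was lowest, and the 2 serum groups overlapped. The change was 0.45 ± 0.10 (SE, adjusted p = 0.000802) in J1 and -0.85 ± 0.11 (SE, adjusted p = 2.83e-06) in 3B3-3l, with a difference of -1.30 ± 0.14 (SE, adjusted p = 6.52e-06). Itga2b itself was at 0.925 ± 0.145 CPM in 3B3-3l 2i against 2.16 ± 0.0290 CPM in its serum group, a log2 change of -1.22 ± 0.16 (SE, adjusted p = 6.63e-06), and the difference from J1 was -0.92 ± 0.22 (SE, adjusted p = 0.00452). That difference was not called with transcript length in the model (-0.65, adjusted p = 0.197).

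Itgb1 was the main integrin beta chain in all groups. It stood at 259, 272 and 274 CPM in J1 serum, at 204, 224 and 205 CPM in J1 2i, 188, 206 and 213 CPM in 3B3-3l serum and 188, 181 and 183 CPM in 3B3-3l 2i. J1 serum was above every other group, and the 2 groups of 3B3-3l adjoined. It fell by a small amount in J1, -0.35 ± 0.05 (SE, adjusted p = 3.54e-05) on the log2 scale. The value in 3B3-3l, -0.14 ± 0.05 (SE, adjusted p = 0.0317), was not called when any of 3 single libraries was left out (-0.10 without 3B3-3l serum replicate 3, adjusted p = 0.141, -0.13 without 3B3-3l serum replicate 2, adjusted p = 0.0981, and -0.13 without 3B3-3l 2i replicate 3, adjusted p = 0.0867). Nor was that value called with transcript length in the model (-0.11, adjusted p = 0.0766). Per length Itgb1 held 62.0% ± 0.523 to 72.2% ± 1.81 of the summed beta chain level.

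Itgb7, the beta chain of lymphocyte homing receptors, moved in opposite directions in the 2 lines. It stood at 38.7, 32.3 and 34.9 CPM in J1 serum and at 30.7, 27.6 and 29.7 CPM in J1 2i. In the other line it stood at 21.6, 22.8 and 22.1 CPM in 3B3-3l serum and 39.7, 43.3 and 41.9 CPM in 3B3-3l 2i. The 3B3-3l serum libraries were the lowest and those of 3B3-3l in 2i the highest. The log2 fold change was -0.27 ± 0.07 (SE, adjusted p = 0.00247) in J1 and 0.91 ± 0.07 (SE, adjusted p = 7.17e-09) in 3B3-3l, a difference of 1.17 ± 0.10 (SE, adjusted p = 3.14e-07). Per length Itgb7 held 10.7% ± 0.522 of the summed beta chains in 3B3-3l serum and 19.97% ± 0.493 in 3B3-3l 2i. Its alpha partners Itga4 and Itgae were low, at no more than 5.33 and 4.24 CPM in any library. Itga4 rose in J1, from 2.20 ± 0.356 to 4.91 ± 0.368 CPM, by 1.16 ± 0.14 (SE, adjusted p = 2.96e-06) on the log2 scale, with 0.12 ± 0.14 (SE, adjusted p = 0.477) in 3B3-3l and a difference of -1.04 ± 0.20 (SE, adjusted p = 0.000937).

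Itgb4, the beta chain of hemidesmosomes, which pairs with Itga6, rose in 3B3-3l from 9.50 ± 1.18 to 23.5 ± 0.129 CPM, a log2 change of 1.31 ± 0.12 (SE, adjusted p = 5.27e-08). In J1 its change was 0.37 ± 0.12 (SE, adjusted p = 0.0105), from 13.5, 11.1 and 9.57 CPM in serum to 16.7, 14.5 and 13.1 CPM in 2i, and the 2 groups overlapped. That value was not called without J1 2i replicate 1 (0.27, adjusted p = 0.0668) or without J1 serum replicate 3 (0.26, adjusted p = 0.0648), and with transcript length in the model it was -0.06. In the deposited transcript estimates, the 521-base model Itgb4-008 held 30.9% ± 5.61 of Itgb4 TPM in J1 serum and 7.72% ± 11.3 in J1 2i, and 3.20% ± 0.562 and 0.609% ± 0.879 of its reads.

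Of the chains that bind collagen, nephronectin or tenascin, Itga1, Itga8 and Itga9 fell in both lines. Itga9, which binds tenascin and other matrix proteins, had the highest level of them in serum. It was at 26.9, 24.7 and 27.5 CPM in J1 serum and at 9.11, 8.19 and 9.56 CPM in J1 2i, and at 23.4, 22.7 and 23.1 CPM in 3B3-3l serum and 3.90, 4.22 and 3.51 CPM in 3B3-3l 2i. The 4 groups did not overlap and 3B3-3l 2i was the lowest. Its log2 fold change was -1.56 ± 0.07 (SE, adjusted p = 2.93e-11) in J1 and -2.57 ± 0.08 (SE, adjusted p = 2.16e-13) in 3B3-3l, a larger fall in 3B3-3l, with a difference of -1.01 ± 0.11 (SE, adjusted p = 6.03e-06). The nephronectin receptor chain Itga8 fell from 1.29 ± 0.227 to 0.295 ± 0.0607 CPM in J1, and in 3B3-3l from 2.67 ± 0.164 to 0.214 ± 0.105 CPM, log2 changes of -2.11 ± 0.26 (SE, adjusted p = 2.34e-06) and -3.64 ± 0.25 (SE, adjusted p = 2.95e-09).

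Itga1, a collagen receptor chain, was near the limit of counting in 2i. It had 93 counts over the 3 J1 serum libraries and 1 over those of J1 2i, a ratio of 98.1 after scaling for library size, with an exact 95% interval of 17.2 to 3915. In 3B3-3l it had 164 counts in serum and 15 in 2i, a ratio of 11.8 (6.92 to 21.5). Itgb8, a beta chain that binds latent TGF-beta with Itgav, had 46 counts in J1 serum and 4 in J1 2i, a ratio of 12.1 (4.43 to 46.4). In 3B3-3l it had 85 and 4 counts, a ratio of 22.8 (8.60 to 85.8). These intervals cover counting error only. Both genes were called lower in 2i in both lines, having passed the filter on low counts through serum libraries alone. The collagen receptor chain Itga10 was called in no contrast and stood at 8.06 to 17.1 CPM over all libraries, and Itga11 stayed at or under 0.352 CPM. Itga11 was called lower in 3B3-3l 2i at a log2 change of -1.91 ± 0.69 (SE, adjusted p = 0.0235), having passed the filter through serum libraries alone. It lost the call when any of 4 single libraries was left out, namely 3B3-3l 2i replicate 1 (adjusted p = 0.09) or 2 (adjusted p = 0.0755) and 3B3-3l serum replicate 1 (adjusted p = 0.0712) or 2 (adjusted p = 0.0804), and without 3B3-3l 2i replicate 3 it was -3.26.

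Itgal is an alpha chain typical of white blood cells. It was at 11.8, 10.9 and 10.5 CPM in J1 serum, at 9.30, 8.88 and 10.4 CPM in J1 2i, 7.02, 6.79 and 7.91 CPM in 3B3-3l serum and 7.38, 7.39 and 7.37 CPM in 3B3-3l 2i. The J1 libraries lay above those of 3B3-3l, with a line difference of -0.61 ± 0.08 (SE, adjusted p = 3.07e-05) in serum and -0.37 ± 0.08 (SE, adjusted p = 0.00193) in 2i. The 2i effect in J1, -0.22 ± 0.08 (SE, adjusted p = 0.0254), was not called without J1 2i replicate 1 (adjusted p = 0.0727), J1 2i replicate 2 (adjusted p = 0.106) or J1 serum replicate 1 (adjusted p = 0.112), nor with transcript length in the model (adjusted p = 0.0548). Its beta partner Itgb2 did not pass 0.298 CPM in any library, Itgam stood at 1.71 to 2.64 CPM and was called in no contrast, and Itgax and Itgad did not pass 0.103 CPM. Itgb2 was called lower in 2i in 3B3-3l alone (-2.21 ± 0.69, adjusted p = 0.0101), and it passed the filter through serum libraries alone. Itgam, Itgax and Itgad are neighbours on chromosome 7, with gaps of 11034 and 23275 bases.

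The lines differed in the size of the 2i effect for 19 of the 32 tested members (9 with a higher and 10 with a lower log2 value in 3B3-3l), where 34.7% of all genes were called for this difference, 16.3% higher and 18.3% lower. At 2-fold or more it was called for 9 members and for 8.22% of all genes. Those with the more positive 2i effect in 3B3-3l included Lamb3, Itgb7, Itgb4 and Lama3, and those with the more negative included Lama4, Itgb3, Itga9 and Lama1. The median difference over the members was -0.15, against -0.03 over all genes. That median includes Itga1, Itga11, Itgb2 and Itgb8, which passed the filter on low counts through serum libraries alone and had few counts in 2i. It is therefore no result about the families. Because the J1 and 3B3-3l effects are set against each other, a difference here is the same quantity as the line difference in 2i minus that in serum.

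Between the lines within 2i, 21 members were called, 13 higher and 8 lower in 3B3-3l, against 45.9% of all genes (23.0% higher and 22.9% lower). In serum, 21 were called, 17 higher and 4 lower, against 38.7% of all genes. The background in serum was 21.5% for genes called higher and 17.2% for genes called lower. Of the 17 higher, Itgb8 (adjusted p = 0.0444), under 1 CPM, was not called by the DESeq2 Wald test (adjusted p = 0.113). Nor was it called with the replicate block (adjusted p = 0.0578) or without any single serum library. Itga7 (adjusted p = 0.0325) was not called without 3B3-3l serum replicate 1 or 3 or any J1 serum replicate. Itgav was not called with transcript length in the model (adjusted p = 0.263). The median over the members was 0.30 in serum and 0.05 in 2i, against 0.03 and 0.01 over all genes. The 4 members lower in 3B3-3l serum were Itgal, Itgb1, Itgb7 and Itga9, of which Itga9 (-0.20 ± 0.07, adjusted p = 0.0349) was not called without 3B3-3l serum replicate 1 (adjusted p = 0.0504), 2 (adjusted p = 0.109) or 3 (adjusted p = 0.0761) or without J1 serum replicate 1 (adjusted p = 0.104) or 3 (adjusted p = 0.122).

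Set at 2-fold or more, called members numbered 11 for 2i against serum in J1 and 12 in 3B3-3l, where 23.2% and 23.4% of all genes passed. The counts include Itga1 and Itgb8 in both lines, and Itga11 and Itgb2 in 3B3-3l. All of these passed the filter on low counts through serum libraries alone, which favoured lower 2i values for them. Called members at 2-fold or more numbered 4 between the lines in 2i and 2 in serum, where 8.09% and 4.58% of all genes passed. The 4 members in 2i were Itga1 and Lamb3, higher in 3B3-3l, and Itga9 and Itgb3, lower. For Itga1 this set 15 counts over the 3 libraries of 3B3-3l 2i against 1 count in J1 2i replicate 1 and 0 in the other two. The 2 in serum were Lama4 (1.42 ± 0.14, adjusted p = 1.90e-06) and Itga8 (1.05 ± 0.19, adjusted p = 0.00049), both higher in 3B3-3l, and the Itga8 value was not called with transcript length in the model (0.68, adjusted p = 0.123). Within 2i, Lamb3 differed by 1.22 ± 0.14 (SE, adjusted p = 3.75e-06), Itgb3 by -1.18 ± 0.10 (SE, adjusted p = 2.35e-07) and Itga9 by -1.21 ± 0.09 (SE, adjusted p = 2.58e-08) on the log2 scale. Lamb1 and Itga3 were higher in 3B3-3l 2i than in J1 2i by 0.94 ± 0.06 (SE, adjusted p = 7.24e-09) and 0.98 ± 0.05 (SE, adjusted p = 1.44e-09), and in serum by 0.27 ± 0.06 (SE, adjusted p = 0.00118) and 0.60 ± 0.05 (SE, adjusted p = 3.38e-07).

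**Figure D4:**
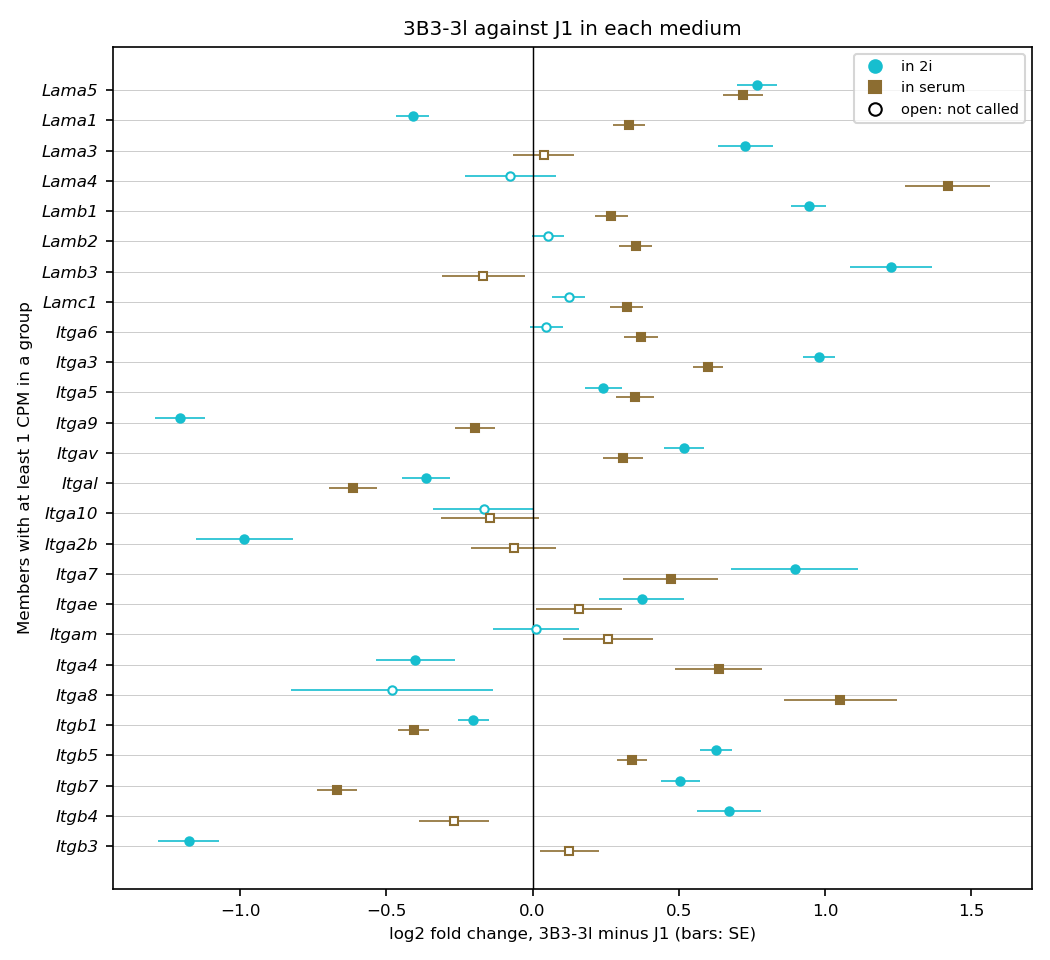
Log2 fold change of 3B3-3l against J1 (horizontal axis, bars are standard errors) for members with at least 1 CPM in a group other than Itga1, with circles for 2i, squares for serum and open symbols where the difference was not called. Lama5 and Itga3 are higher in 3B3-3l in both media, while Lama1 and Itgb7 have called differences of opposite sign in the 2 media.

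Other genes of the same pathways moved in both directions. Of 31 tested genes for adaptors that link integrins to the cytoskeleton, 5 were called higher and 16 lower in 2i in J1, and 8 higher and 17 lower in 3B3-3l, with medians of -0.28 and -0.16. Of all tested genes 66.1% were called in J1 (33.2% higher and 32.9% lower) and 65.4% in 3B3-3l (32.7% each way). The median over all genes was 0.01 in either line. The adaptors called numbered 21 in J1, near that share, and 25 in 3B3-3l. Tns1, a tensin that binds integrin tails, rose from 23.8 ± 2.26 to 84.3 ± 3.91 CPM in J1 (1.83 ± 0.06 on the log2 scale), and in 3B3-3l from 24.5 ± 0.267 to 81.1 ± 0.933 CPM (1.73 ± 0.06). The adhesion kinase Ptk2b fell in J1 from 18.9 ± 0.981 to 2.67 ± 0.0905 CPM (-2.82 ± 0.08), and zyxin (Zyx), a protein of mature focal adhesions, fell in 3B3-3l from 38.5 ± 1.43 to 7.39 ± 0.460 CPM (-2.38 ± 0.08).

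Of 18 tested genes for other parts of the basement membrane, 4 were called higher and 11 lower in J1, and 4 higher and 12 lower in 3B3-3l, with medians of -0.79 and -1.41. The shares and medians over all genes are those given with the adaptors. Nid1, the nidogen that binds laminin gamma chains, rose with Lamc1, from 129 ± 8.06 to 378 ± 30.0 CPM in J1 (1.55 ± 0.06), and in 3B3-3l from 105 ± 4.30 to 442 ± 5.35 CPM (2.08 ± 0.06). The basement membrane collagens Col18a1 (J1) and Col4a2 (3B3-3l) had the lowest values among called genes with at least 10 CPM in the higher group. Col18a1 fell in J1 from 572 ± 8.19 to 69.1 ± 5.29 CPM (-3.05 ± 0.07), and Col4a2 fell in 3B3-3l from 24.1 ± 1.97 to 2.67 ± 0.424 CPM (-3.17 ± 0.10).

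Of 17 tested genes for other integrin ligands, 5 were called higher and 8 lower in J1, and 6 higher and 10 lower in 3B3-3l, with medians of -0.08 and -0.59. The values over all genes given with the adaptors stand beside this list as well. Mfge8, a ligand of Itgav receptors, rose in J1 from 52.4 ± 2.29 to 115 ± 9.65 CPM (1.13 ± 0.06), and osteopontin (Spp1) rose in 3B3-3l from 395 ± 12.0 to 678 ± 18.2 CPM (0.78 ± 0.05). Thrombospondin 1 (Thbs1) fell from 28.8 ± 2.13 to 0.117 ± 0.0277 CPM in J1 (-7.91 ± 0.13), and in 3B3-3l from 31.9 ± 1.32 to 0.154 ± 0.00900 CPM (-7.67 ± 0.12). The lists hold genes of general knowledge, and the genes named from them had the highest and lowest values among called genes with at least 10 CPM in the higher group.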

How the data were processed

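Integrin and laminin members, gene lists and the rule for naming genes were chosen with earlier results of these data known. Fold changes are given for members called in a contrast or set beside one. Of each pathway list, the called gene with the highest and that with the lowest log2 fold change per medium contrast was named, among genes with at least 10 CPM in the higher group. The lists (adhesion adaptors, basement membrane partners, other integrin ligands, and markers of mESCs, fibroblasts, extraembryonic endoderm and blood cells) were written from general knowledge. The results of 1 member are not reported here.

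The authors made stranded poly(A) libraries, quantified transcripts with Sailfish on mm10 models and used tximport to sum them to genes. The deposited gene table holds these estimated counts, which carry no scaling for library size or length. The authors also deposited TPM, effective lengths and estimated counts per transcript for each library. The methods cite RefSeq models although the tables carry Ensembl identifiers. Libraries were sequenced in pools, and the pool of each library was not given in the sources used here, so no pool effect could be examined. Libraries held 37050652 to 44515395 estimated reads. Reads carried no molecular identifiers, so intervals on counts hold counting error alone.

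After rounding, the estimated counts were filtered by filterByExpr in edgeR (version 4.0.16, R 4.3.3), with 17885 genes kept. TMM factors lay between 0.97 and 1.038. All 12 libraries entered 1 quasi-likelihood fit with a mean for each group, and adjusted p values are Benjamini-Hochberg values over all genes tested in a contrast. The biological coefficient of variation was 6.49%. Groups and replicate numbers came from the labels, which call the replicates biological. Levels between genes are CPM divided by the read-weighted mean effective length of a gene's transcripts in kb. Chain shares are percentages of the summed level of a family in a library, and carry no test. Gene positions are whole RefSeq genes of GRCm38.p6, in which all 37 symbols were found, and upstream sequences are from RefSeq. Alternatives were DESeq2 size factors, no filter, a stricter filter, the DESeq2 Wald test (version 1.42.0), the replicate block, a fit to just the 6 libraries of a contrast, transcript length offsets, a 2-fold threshold, TPM in place of CPM per kb for shares, and leaving out each library.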

Additional observations from a re-analysis of the deposited data

Results flagged for a closer look

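The effect of 2i differed between the lines for 19 members by the interaction test of edgeR (adjusted p under 0.05, 34.7% of all genes). The values are the log2 fold change of 2i against serum in 3B3-3l minus that in J1, each over 3 libraries a group. Among the laminin chains given here the difference was 0.68 for Lamb1, -0.30 for Lamb2, 1.39 for Lamb3, -0.74 for Lama1, 0.69 for Lama3 and -1.50 for Lama4. Among the integrin alpha chains it was 0.38 for Itga3, -0.32 for Itga6, -1.04 for Itga4, -1.01 for Itga9, -0.92 for Itga2b, -1.53 for Itga8 and 2.69 for Itga1, where J1 2i held 1 count over 3 libraries. The value of Itga2b was not called with transcript length in the model (-0.65, adjusted p = 0.197). That of Itga1 was not called by the DESeq2 Wald test (adjusted p = 0.0584), without J1 2i replicate 2 (2.24, adjusted p = 0.0843) or without J1 2i replicate 3 (2.28, adjusted p = 0.0673), and it was 4.51 without J1 2i replicate 1. Among the integrin beta chains it was 0.20 for Itgb1, -1.30 for Itgb3, 0.94 for Itgb4, 0.29 for Itgb5 and 1.17 for Itgb7. The value of Itgb1 lies at the threshold (adjusted p = 0.0495) and was not called under the replicate block or either other filter on low counts, nor without most of the single libraries. For Itgb3, Itgb7 and Lamb3 the effects of the 2 lines were called with opposite signs.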

How the results depend on the processing

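Aside from the 2-fold threshold, which is stricter by construction, 91 of 109 called fold changes of members stayed called in the same direction under every alternative and 18 did not under at least 1, of which 2 lost the call only where 1 library was left out. The one reversal was Itgb4 in J1, at -0.056 with transcript length offsets. At 2-fold or more, called members numbered 11 for 2i against serum in J1, 12 in 3B3-3l, 4 between the lines in 2i, 2 between them in serum and 9 for the difference of the 2i effects. Those for 2i against serum include members that passed the filter on low counts through serum libraries alone. Leaving out each library in turn gave 22 to 27, 22 to 26, 18 to 21, 18 to 21 and 18 to 19 called members in the same order. Every other alternative left these counts within 1.5 times the reported ones. Chain shares moved by at most 0.0171 percentage points with TPM. That largest difference was for Itgad in 3B3-3l 2i, where the transcript estimates of Itgad held 6.36% of its gene counts over all libraries. For the other members both scales divide the same reads, apart from rounding, by the same effective lengths within a library. This agreement was thus fixed in advance and tests nothing.

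Replicate numbers did not pair the libraries: over 18 pairs of the same number, the correlation of deviations from the group means ran from -0.22 to 0.0984, and the best match of a library in another group had its own number in 6 of 36 cases. With the replicate block, 24, 24, 20, 20 and 18 members were called, and 4 called fold changes lost the call. Genes under about 1 CPM rest on few counts, and their fold changes are wide.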
